A study of Mus musculus with 32 samples.

Results

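The 84 genes described here are the protein-coding members of 9 families of developmental transcription factors, out of 21938 protein-coding genes in the GENCODE M21 annotation of the mm10 mouse genome. Members were chosen by symbol alone, as all *Pax*, *Tbx*, *Lhx*, *Sox*, *Pitx*, *Dlx* and *Irx* genes with a numeral, *Six2* and its numbered relatives, and all *Nkx1* to *Nkx6* genes. There were 6 *Dlx*, 6 *Irx*, 8 *Lhx*, 14 *Nkx*, 9 *Pax*, 3 *Pitx*, 19 *Sox* and 13 *Tbx* genes, and 6 genes of the *Six2* family. ChIP-seq had been performed for H3K4me3, H3K9ac, H3K27ac and H3K4me1 in *MLL-AF9* leukemias, with 2 replicates of each mark in *Kat2a* WT and in *Kat2a* KO, 16 lists of peaks in all. All donors carried *Kat2a* Flox/Flox, WT donors lacked *Mx1-Cre* and KO donors were *Mx1-Cre*+/-, and both received pIpC, which induces the interferon-responsive *Mx1* promoter and hence the recombinase. BM was collected 4 to 6 weeks afterwards, and lineage-depleted cells were transduced with an *MLL-AF9* retrovirus and injected into irradiated recipients. BM at terminal disease was pooled from 5 WT and 4 KO animals, and 500000 cells were used for H3K27ac and H3K4me1 and 5000000 for H3K9ac and H3K4me3. The replicates of a genotype come from 1 pool, and differences between leukemias are not part of their spread. Excision leaves a transcribed in-frame product without acetyltransferase activity, and total BM of a recipient can still hold host cells.

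These families specify organs and cell types in the embryo and are known for silence in most adult lineages outside the tissue each one patterns. *Pax* proteins bind DNA through a paired domain, *Sox* proteins through an HMG box and *Tbx* proteins through a T-box, while the others carry homeodomains, joined in *Lhx* to LIM domains and in the *Six2* family to a domain that binds Eya cofactors. Their promoters lie mostly in CpG islands, which attract both the complexes that deposit H3K4me3, a mark of CpG-rich promoters whether or not they are transcribed, and Polycomb repressors. H3K9ac, a product of KAT2A among other enzymes, and H3K27ac, a product of CBP and p300, accompany active promoters, and H3K4me1 marks enhancers and the flanks of promoters.

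A mark was read as present at a gene in a library when a listed peak overlapped, by at least 1 bp, the window from 1 kb upstream to 500 bp downstream of any TSS of the gene. H3K4me3 and H3K9ac were called for a genotype when present in both replicates. H3K27ac and H3K4me1 were read from replicate 2 alone, and none of the promoter peaks of members in the replicate 1 lists of these marks had a q-value of 0.05 or less. Peaks carry no strand, and the windows of 23 members also held a start of another annotated gene, such as *Dlx1as*, *Irx3os* and *Lhx1os*, so that a peak there cannot be assigned to either gene. The lists give fold enrichment and significance of each peak and no read counts, so the depth of each library is unknown and a missing peak says only that none was listed. The lists hold 15685 to 23297 peaks for H3K4me3 and 27657 to 33605 for H3K9ac, in both cases with the largest list in WT replicate 1. Other protein-coding genes had a promoter peak in 48.8% to 55.6% of cases for H3K4me3 and in 51.6% to 54.5% for H3K9ac. Of 10 myeloid leukemia markers, H3K4me3 was called at 7 in WT and 8 in KO, and none lacked it in every library. Among markers of other cells of the marrow, it was called in WT and KO at 1 and 1 of 5 B cell genes, 0 and 1 of 5 T cell genes, 0 and 1 of 4 erythroid genes, 0 and 1 of 5 endothelial genes and 2 and 1 of 5 stromal genes. H3K27ac was listed in WT and KO at 8 and 10 of the 10 leukemia markers. It was listed at 1 and 1 of the B cell genes, 1 and 2 of the T cell genes and 0 and 0 of the erythroid genes. For endothelial and for stromal genes it was listed at 1 and 1. *Cd3d*, *Pecam1* and *Col1a1* had H3K9ac in all 4 libraries without an H3K4me3 call in either genotype. The part of other marrow cells in the values below was not tested, and fewer cells with a mark and less of it per cell cannot be told apart. The promoter of *Kat2a* itself carried H3K4me3 and H3K9ac in both replicates of either genotype. It lies outside the deleted part and so does not check the labels.

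The promoters of 5 members are shown for the range of states that the members took. Of the members marked in every H3K4me3 library, *Tbx21* was among the highest by mean percentile of H3K4me3 enrichment within the lists, and *Sox12* and *Pax6* were the lowest. *Nkx6-1* had H3K4me3 and H3K9ac in both WT replicates and in neither KO replicate, and *Irx5* had H3K4me3 in both KO replicates without a listed H3K9ac peak in the window there. Each line gives the 250 bases upstream of a GENCODE TSS in GRCm38, 5′ to 3′ on the strand of the gene, with CpG dinucleotides in capitals.
Tbx21, chr11:97115332-97115581, - strand: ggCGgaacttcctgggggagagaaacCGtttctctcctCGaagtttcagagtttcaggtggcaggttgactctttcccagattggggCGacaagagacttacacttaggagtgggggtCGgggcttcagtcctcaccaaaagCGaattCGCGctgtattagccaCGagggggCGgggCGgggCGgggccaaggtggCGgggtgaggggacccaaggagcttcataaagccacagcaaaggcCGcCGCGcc
Sox12, chr2:152398064-152398313, - strand: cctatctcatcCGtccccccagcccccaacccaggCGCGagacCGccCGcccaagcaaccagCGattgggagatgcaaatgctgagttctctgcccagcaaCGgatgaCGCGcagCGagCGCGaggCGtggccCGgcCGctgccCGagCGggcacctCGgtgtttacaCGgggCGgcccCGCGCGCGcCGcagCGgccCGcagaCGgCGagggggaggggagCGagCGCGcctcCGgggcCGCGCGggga
Pax6, chr2:105674859-105675108, + strand: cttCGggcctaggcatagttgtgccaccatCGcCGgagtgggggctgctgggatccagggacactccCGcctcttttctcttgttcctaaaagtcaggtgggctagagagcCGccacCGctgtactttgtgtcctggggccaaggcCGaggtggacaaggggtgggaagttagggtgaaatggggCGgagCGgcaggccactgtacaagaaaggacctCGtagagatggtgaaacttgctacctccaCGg
Nkx6-1, chr5:101664997-101665246, - strand: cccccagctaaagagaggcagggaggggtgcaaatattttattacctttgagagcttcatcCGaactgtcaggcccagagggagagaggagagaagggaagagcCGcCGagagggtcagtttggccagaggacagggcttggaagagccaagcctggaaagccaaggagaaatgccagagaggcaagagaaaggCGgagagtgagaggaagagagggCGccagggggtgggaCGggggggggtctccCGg
Irx5, chr8:92357375-92357624, + strand: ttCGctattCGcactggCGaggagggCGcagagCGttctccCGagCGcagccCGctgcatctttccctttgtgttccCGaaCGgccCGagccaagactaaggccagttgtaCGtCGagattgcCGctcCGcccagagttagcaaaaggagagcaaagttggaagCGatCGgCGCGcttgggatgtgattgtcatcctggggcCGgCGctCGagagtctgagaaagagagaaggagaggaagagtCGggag

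*Sox12* held 36 CpG in these 250 bases, more than 97.3% of protein-coding genes at their outermost TSS. *Irx5* held 23, *Tbx21* 16, *Pax6* 11 and *Nkx6-1* 7. The median was 13.0 over the 84 members and 8.0 over all genes. An H3K4me3 peak of all 4 libraries reached into the printed bases at *Tbx21*, *Pax6* and *Irx5*, against 1 library at *Sox12* and at *Nkx6-1*, where the remaining peaks lay elsewhere in the window. H3K9ac peaks reached the printed bases of *Tbx21* in both WT replicates and 1 KO replicate, and those of *Pax6* in none. Of the letters searched on both strands, CACGTG (the E-box read by MYC and MAX) and CCGGAA (an ETS core) occurred in none of the 5 sequences. CACGTG was found in the 250 bases of 6 members (7.14%) and of 6.53% of all protein-coding genes, and CCGGAA in 9 members (10.7%) and 13.7% of all genes. A match of letters describes the sequence and is not a binding site.

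H3K4me3 was called at 19 of 84 members in WT and likewise at 19 in KO, against 48.4% of all protein-coding genes in WT and 50.0% in KO. In single libraries, 36 and 19 members had an H3K4me3 peak in WT and 22 and 25 in KO. WT replicate 1 stood above the other libraries, and the genotypes overlapped. With WT replicate 2 left out, the WT count was 36. Altogether 39 members had H3K4me3 in at least 1 library. In exactly 1 library it was listed at 10 of these, against 3.38% of all genes. At 7 of the 10, including the B cell factor *Pax5*, that library was WT replicate 1. Of the other 45, with none, which compares with 42.7% of all genes, 3 carried H3K9ac in 1 or 2 lists (*Dlx6*, *Sox15* and *Sox30*). A further 9 members, such as *Sox7* and *Nkx2-5*, had peaks of H3K4me1 and no other mark. For these 3 and 9 members, and for the 7 with WT replicate 1 only, the share of all genes was not counted. No promoter peak of any mark was listed for 31 members, against 36.0% of all genes, among them *Sox2*, *Sox9*, *Sox17*, *Pax1*, *Pax7*, *Irx1* and *Nkx2-2*. At *Nkx2-2* H3K4me3 peaks lay 1536 to 1702 bp from the nearest TSS in both WT replicates and KO replicate 1.

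**Figure D1:**
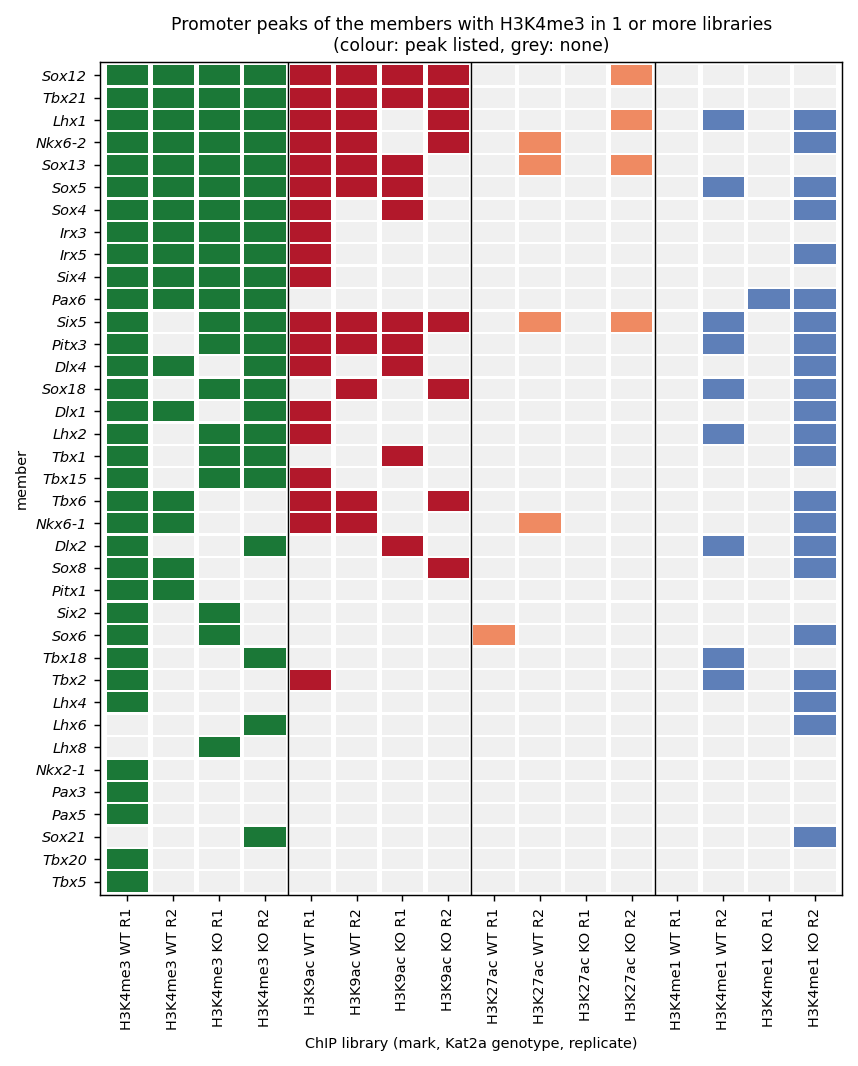
Promoter peaks of 37 of the 39 members with H3K4me3 in at least 1 library (rows) in the 16 ChIP libraries (columns, R1 and R2 for the replicates), with a coloured cell where a peak is listed and the colour giving the mark. The top 11 rows have H3K4me3 in all 4 libraries, while H3K9ac is listed at fewer members in the KO libraries than in the WT libraries and H3K27ac at few in any.

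Of the members, 13 had H3K4me3 in all 4 libraries, among them *Irx3*, *Irx5*, *Lhx1*, *Nkx6-2*, *Pax6*, *Six4*, *Sox12*, *Sox13*, *Sox4*, *Sox5* and *Tbx21*, which compares with 46.7% of all genes. At 11 of them the peaks of the 4 libraries met at the window of 1 TSS, and at *Lhx1* and *Sox13* they did not. By family, the *Sox* genes gave 4 of the 13, the *Irx* and *Six2* families 2 each, and no *Dlx* gene was among them. The called members outside this group differed between genotypes. Over all genes, H3K4me3 was called at 10608 in WT, at 10966 in KO and at 10247 in both. *Dlx1*, *Dlx4*, *Nkx6-1*, *Pitx1*, *Sox8* and *Tbx6* were called in WT only, and *Lhx2*, *Pitx3*, *Six5*, *Sox18*, *Tbx1* and *Tbx15* in KO only. All 6 of the latter also had an H3K4me3 peak in WT replicate 1, and replicate 2 alone had none in the window in WT. At *Six5* and *Pitx3* a WT replicate 2 peak lay just past it, 532 and 757 bp from a TSS.

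Where members had an H3K4me3 or H3K9ac peak, it was by the median weaker and narrower than promoter peaks of other genes in the same list. Within the whole list, the members' median percentile of fold was 27.8 to 48.5 for H3K4me3 and 19.0 to 46.3 for H3K9ac. The median fold enrichment of the strongest H3K4me3 peak per member was 4.34 and 4.11 in the WT replicates and 4.26 and 3.83 in KO, against 8.54, 5.94, 6.11 and 7.42 for other genes with a peak. Averaged over libraries this was 4.14 ± 0.224 (SD, n = 4) for members and 7.00 ± 1.22 for other genes. H3K4me3 peaks had a median width of 558 ± 76.2 bp at members and 855 ± 164 bp elsewhere. For H3K9ac the distance was wider, with a median fold of 3.38 ± 0.279 at members and 10.8 ± 0.845 at other genes, and a width of 417 ± 92.4 bp against 1211 ± 101 bp. In each of the 4 libraries of either mark the members' median fold and width lay below those of other genes. These medians cover only the members with a peak and are a description.

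**Figure D2:**
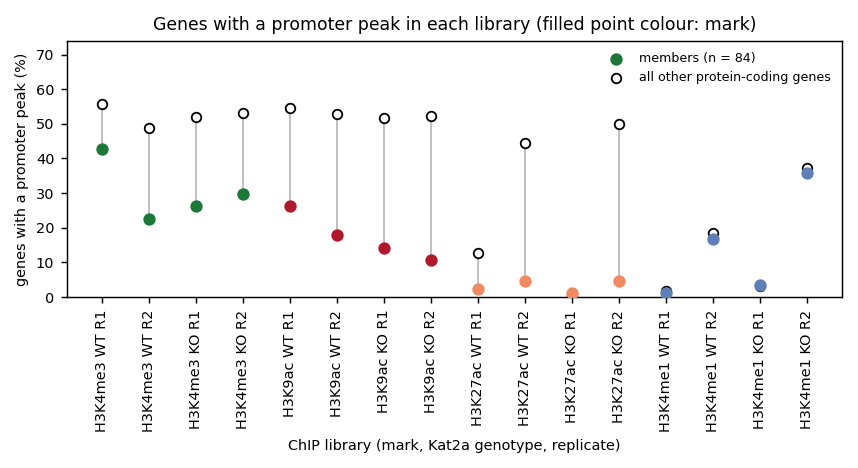
Percentage of genes with a promoter peak (y axis) in each of the 16 libraries (x axis), for the 84 members (filled, coloured by mark) and all other protein-coding genes (open). For H3K4me3 the members lie at 22.6% to 42.9% and other genes at 48.8% to 55.6%, while for H3K4me1 replicate 2 the points nearly coincide.

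Acetylation of the called promoters was sparse. Of the 19 members with H3K4me3 in WT, 3 carried H3K9ac and H3K27ac (*Nkx6-1*, *Nkx6-2* and *Sox13*), against 85.6% of all genes with H3K4me3. H3K9ac alone was called at 7 (*Lhx1*, *Sox12*, *Sox5*, *Tbx21* and *Tbx6* among them), against 11.2%. Neither was called at 9 (*Dlx1*, *Dlx4*, *Irx3*, *Irx5*, *Pax6*, *Pitx1*, *Six4*, *Sox4* and *Sox8*), against 3.03%, and H3K27ac without H3K9ac at 0, against 0.151%. Of these 9, 6 had an H3K9ac peak in WT replicate 1, and 3 (*Pax6*, *Pitx1* and *Sox8*) had none in either replicate, against 1.25%. Without WT replicate 2, the WT members with H3K9ac alone were 17 and those with neither mark 15. Without the members that share a window with another gene, 5 had neither. With the window extended to 1 kb downstream, 6 had neither in WT and 11 in KO. With a q-value of 0.05 or less, both acetylation marks lay at 2 called members in WT and 1 in KO. With all marks required at the same TSS, 18 members were called in WT and 2 carried both. At *Sox13* the WT replicates had H3K4me3 at different starts.

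In KO, 2 of the 19 called members carried both marks (*Six5* and *Sox12*), against 91.1% of all genes with H3K4me3, and 2 had H3K9ac alone (*Tbx21* among them), against 3.68%. H3K27ac without H3K9ac was called at 2 (*Lhx1* and *Sox13*), against 0.912%. The remaining 13 had neither, against 4.27%. At *Lhx1* and *Sox13* the KO H3K27ac peak lay at starts without an H3K4me3 call in KO. With all marks required at the same TSS, 15 of 19 called KO members had neither, 2 had both and 2 had H3K9ac alone. No H3K9ac peak in either KO replicate was listed for 7 (*Irx3*, *Irx5*, *Lhx2*, *Pax6*, *Six4* and *Tbx15* among them), against 2.63%. With H3K4me3 peaks limited to a q-value of 0.01 or less, the called KO members were 12 in place of 19, of which 7 had neither acetylation mark. H3K9ac alone was called at 4 KO members without KO replicate 1 and at 6 without KO replicate 2.

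**Figure D3:**
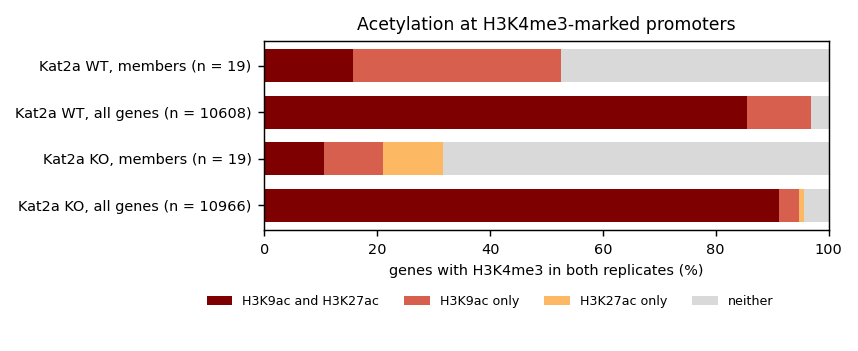
Share of genes with H3K4me3 in both replicates (x axis, percent) by acetylation class, for members and for all protein-coding genes in WT and KO, with the number of genes in each row label. The class with neither mark takes 9 of 19 members in WT and 13 of 19 in KO and a thin strip of all genes.

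*Tbx21* encodes T-bet, the factor of type 1 helper T and natural killer cells, and its peaks kept to percentiles 56.2 to 65.5 of the H3K4me3 lists, the narrowest range of the 13. Its H3K4me3 enrichment was 7.10- and 5.74-fold in WT and 5.33- and 5.81-fold in KO, with peaks of 766 to 1137 bp across its single annotated TSS, such as chr11:97114467-97115603 in WT replicate 1. H3K9ac was listed in all 4 libraries, at 4.25- and 2.89-fold in WT and 3.07- and 3.74-fold in KO, and the genotypes overlapped for this mark. No H3K27ac or H3K4me1 peak was listed there.

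*Six4* is a homeobox gene of muscle and of sensory placodes. Its H3K4me3 was 7.62- and 4.48-fold in WT and 3.82- and 3.69-fold in KO, with both KO values below WT, and H3K9ac was listed in the window in WT replicate 1 alone, at 5.64-fold. WT replicate 2 had an H3K9ac peak of 2.79-fold at 803 bp from the TSS, overlapping that of replicate 1, and the nearest KO peaks lay 9942 and 10235 bp away. *Six5*, another member of the family, had H3K9ac in all 4 libraries with the strongest values of the families in KO, 6.11- and 10.1-fold, against 4.97- and 6.93-fold in WT. Its H3K27ac was 5.49-fold in WT and 6.20-fold in KO replicate 2, while H3K4me3 was listed in WT replicate 1 and both KO replicates. In WT replicate 2 an H3K4me3 peak of 3.32-fold lay 532 bp from the TSS, just past the window, so that the call of *Six5* in KO only rests on that edge.

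Among the *Sox* genes, *Sox4*, known from lymphocyte development and from leukemia, had H3K4me3 at 2.78- and 4.11-fold in WT and 4.26- and 5.57-fold in KO. The KO replicate 1 peak had its summit 1414 bp from the TSS, and the WT lists held peaks of 4.56- and 4.74-fold just past the window, so that the genotypes cannot be ordered there. H3K9ac at *Sox4* was listed in the window in replicate 1 of either genotype, at 5.45-fold in WT and 5.34-fold in KO. In the replicate 2 lists the nearest H3K9ac peaks lay just past the window, 633 bp from the TSS in WT and 732 bp in KO. *Sox12*, which belongs to the same SoxC group, had H3K4me3 at 6.35- and 3.79-fold in WT and 2.24- and 4.53-fold in KO. The strongest WT replicate 1 peak lay downstream of the TSS and the others upstream. H3K9ac at *Sox12* was listed in all 4 libraries, at 3.22- and 4.51-fold in WT and 2.45- and 3.73-fold in KO. H3K27ac was listed there in KO at 4.49-fold and not in WT. The SoxD gene *Sox5*, a regulator of cartilage and neurons, had the widest range of the 13, from percentile 15.5 to 82.7, with H3K4me3 at 9.36- and 3.47-fold in WT and 4.56- and 9.06-fold in KO. H3K9ac at *Sox5* was listed in both WT replicates and in KO replicate 1. *Sox13*, another SoxD gene, carried H3K9ac at 4.26- and 4.77-fold in WT and at 3.78-fold in KO replicate 1, and H3K27ac at 4.10-fold in WT and 5.51-fold in KO. These acetylation peaks lay at chr1:133385643-133386204 and overlapping positions, while the strongest H3K4me3 peaks of WT replicate 2 and both KO replicates lay at a start farther upstream, as at chr1:133423097-133423880.

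*Irx5* and *Irx3*, Iroquois genes of limb and heart patterning, had H3K4me3 in every library. For *Irx5* it was 7.17- and 4.94-fold in WT and 4.91- and 5.14-fold in KO, and for *Irx3* 5.62- and 3.40-fold in WT and 4.58- and 2.69-fold in KO, so that the genotypes overlapped for both. The strongest WT replicate 1 peak of *Irx5*, at chr8:92355882-92356966, only reached the upstream edge of the window, and a weaker one covered the printed bases. In the window, H3K9ac was listed for each in WT replicate 1 alone, at 2.26-fold for *Irx5* and 3.83-fold for *Irx3*. At *Irx5* WT replicate 2 held an H3K9ac peak of 3.03-fold at 640 bp from a TSS, and the nearest KO peaks lay at 1282 and 1357 bp. *Lhx1*, required for head and kidney formation, had H3K4me3 at 4.61- and 7.23-fold in WT and 3.40- and 5.88-fold in KO. The replicate 2 peaks of WT and KO overlapped, while the replicate 1 peaks lay apart from these and from each other. The genotypes therefore cannot be ordered there. H3K9ac at *Lhx1* was 2.61- and 3.05-fold in WT and 2.44-fold in KO replicate 2. *Nkx6-2*, a homeobox gene of the neural tube, had H3K4me3 at 4.73- and 4.20-fold in WT and 4.25- and 5.44-fold in KO, with H3K9ac at 2.72- and 3.77-fold in WT and 2.56-fold in KO replicate 2. In KO replicate 1 the nearest H3K9ac peak lay 900 bp from the TSS. H3K27ac was listed in the window at 3.13-fold in WT. A KO peak of 3.84-fold lay just past it, 572 bp from a TSS.

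*Pax6*, a regulator of eye development, had the lowest mean rank of the 13, with H3K4me3 at 4.34- and 3.16-fold in WT and 4.17- and 3.11-fold in KO. It was the 1 member of this group without H3K9ac in any library. Its peaks lay over internal starts of the gene, between 105674657 and 105676548 on chromosome 2, and none at its outermost start. The widest H3K4me3 peaks of the families in the KO replicates were 1653 bp at *Sox4* and 1417 bp at *Nkx6-2*.

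**Figure D4:**
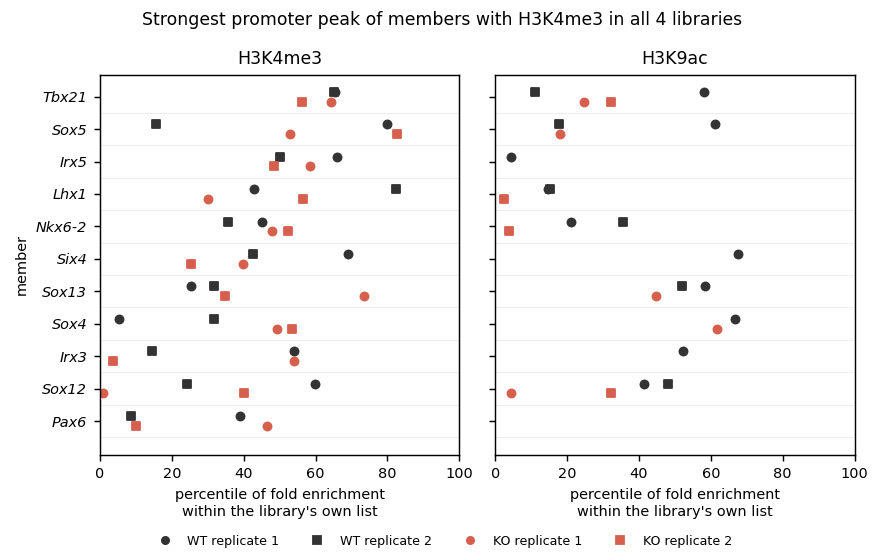
Percentile of the fold enrichment of the strongest promoter peak within its own list (x axis) for 11 of the 13 members with H3K4me3 in all 4 libraries (y axis), with WT in black, KO in red, circles for replicate 1 and squares for replicate 2. A missing point means that no peak was listed, as for H3K9ac at *Pax6*.

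H3K9ac was listed for fewer members in KO. In WT, 22 and 15 members had a promoter peak and in KO 12 and 9, a mean of 18.5 ± 4.95 against 10.5 ± 2.12 (SD, n = 2), and the genotypes did not overlap. For H3K4me3 the means were 27.5 ± 12.0 and 23.5 ± 2.12, a difference smaller than the spread in WT. The share of other genes with H3K9ac was also lower in KO without overlap, with 54.5% and 52.9% for the WT replicates and 51.6% and 52.4% for the KO replicates, a difference of -1.72 percentage points, and the KO lists hold fewer peaks. The gap between members and other genes was -31.7 points in WT and -39.5 points in KO, which moves it by -7.81 points, and with the same number of peaks from every list the count still differed by -7.5 members. An exact permutation test of 2 libraries against 2 can give no p under 0.333, so that test cannot pass a threshold of 0.05 here, and no test with a lower limit was run on these counts.

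Of the 13 members with H3K4me3 throughout, H3K9ac was listed for 12 and 8 in the WT replicates and for 6 and 5 in the KO replicates. In both replicates it was listed for 8 in WT, against 98.1% of all genes with H3K4me3 in all 4 libraries, and for 3 in KO (*Sox12* and *Tbx21* among them), against 96.9%. The members rank low among such genes. By mean rank of H3K4me3, with these genes split into 4 groups of equal size, 11 of the 13 fell in the lowest group of 2562 genes and the other two, with *Tbx21* among them, in the next. In the lowest group 92.9% of all genes had H3K9ac in WT and 88.7% in KO, against 6 and 2 of the 11 members, and H3K27ac was listed for 67.0% in WT and 82.0% in KO, against 2 and 3 of the 11.

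H3K9ac in both WT replicates and neither KO replicate was found at 2 members, *Nkx6-1* among them, against 0.647% of all genes (10 members without WT replicate 2 and 5 without either KO replicate), and the reverse at 0 members, against 0.173%. For H3K4me3 this held at 4 members, *Nkx6-1*, *Pitx1*, *Sox8* and *Tbx6*, against 0.346%, with 0 in reverse, against 0.228%. The windows of *Pitx1* and *Sox8* also held a start of another gene, so their peaks cannot be assigned to either gene. *Nkx6-1*, a factor of pancreatic beta cells and motor neurons, met both criteria. Its WT H3K4me3 was 6.02- and 3.64-fold, H3K9ac 3.29- and 3.09-fold and H3K27ac 2.84-fold, and the KO libraries listed an H3K4me1 peak of 3.23-fold in replicate 2. The WT H3K4me3 peaks of *Pitx1*, a hindlimb factor, were 3.43- and 3.92-fold, those of *Sox8*, a SoxE gene, 4.05- and 3.47-fold, and those of *Tbx6*, a factor of paraxial mesoderm, 3.55- and 3.48-fold. These 6 peaks ranked from percentile 15.5 to percentile 35.6 of their lists, and *Tbx6* and *Sox8* had an H3K9ac peak in KO replicate 2.

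H3K27ac replicate 2 had a promoter peak at 4 members in WT (*Nkx6-1*, *Nkx6-2*, *Six5* and *Sox13*), against 44.3% of all genes, and at 4 in KO (*Lhx1*, *Six5*, *Sox12* and *Sox13*), against 49.8%. In KO these peaks were 3.74-fold at *Lhx1*, 4.49-fold at *Sox12*, 5.51-fold at *Sox13* and 6.20-fold at *Six5*. At *Nkx6-2* the KO list held a peak of 3.84-fold just past the window, so its absence in KO rests on that edge. For H3K4me1 replicate 2 the members' shares lay near those of all genes, with 14 members in WT, against 18.4%, and 30 in KO, against 37.2%. The KO list also holds more peaks, 78042 against 45770 in WT. Among called members it lay at 3 of 19 in WT, against 29.3% of all genes with H3K4me3, and at 12 of 19 in KO, against 61.0%. Of the members' strongest H3K4me1 peaks in replicate 2, 3 of 14 in WT and 24 of 30 in KO had a q-value of 0.05 or less. With 1 list per genotype these differences have no replicate check.

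The promoters without H3K4me3 were rich in CpG. Over the window around the outermost TSS, the 45 members with no H3K4me3 held a median of 65.0 CpG and an observed over expected ratio of 0.600, against 16.0 and 0.198 for the 9321 other genes without H3K4me3. The 26 members with H3K4me3 in 1 to 3 libraries had a median ratio of 0.581, against 0.519 for other genes. At the 13 with all 4 libraries it was 0.674, against 0.668. Among members without H3K4me3 the ratio ranged from 0.0967 at *Pax4* to 0.941 at *Sox11*, and *Sox2*, with 0.871, had no promoter peak in any list.

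**Figure D5:**
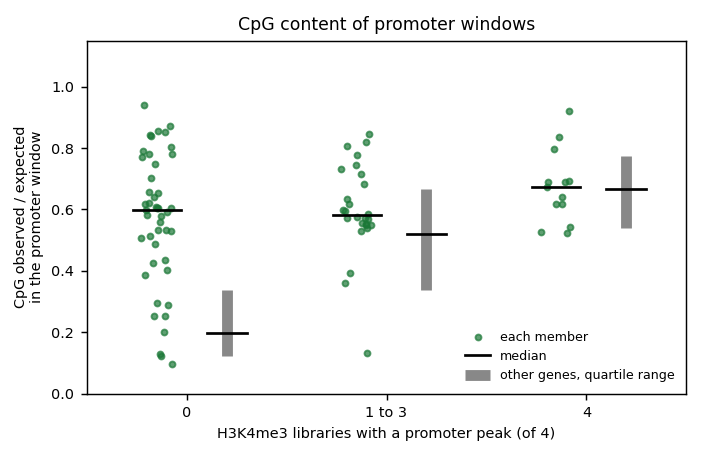
Observed over expected CpG ratio of the promoter window at the outermost TSS (y axis) by the number of H3K4me3 libraries with a peak (x axis), with a green point for each member, a grey bar for the quartile range of other protein-coding genes and black lines for medians. Members without H3K4me3 centre at 0.600 and other genes without it at 0.198.

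Of 14 members listed as known from blood or vessels, H3K4me3 was called at 8 in WT and 10 in KO, beside 48.4% and 50.0% of all genes. The list was drawn up with earlier results of these data known. It includes *Six4*, *Irx3* and *Irx5*, described above for other tissues. Its share is therefore no finding about blood or vessel genes. H3K9ac and H3K27ac lay together at 1 of the 8 in WT (*Sox13*), against 85.6% of all genes with H3K4me3, and at 0 of the 10 in KO, against 91.1%. No single *Sox13* TSS had H3K4me3 in both WT replicates. *Sox18*, an endothelial factor, had H3K4me3 at 6.54-fold in WT replicate 1 and 3.46- and 3.55-fold in KO. *Pax5*, which commits cells to the B lineage, had 1 H3K4me3 peak, of 3.81-fold in WT replicate 1. *Sox17*, also endothelial, and *Nkx2-3*, a gene of spleen vessels, had no promoter peak in any list, although an H3K4me3 peak lay 2093 bp from the *Nkx2-3* TSS in WT replicate 1. *Lhx2*, which sustains progenitors in several tissues, had H3K4me3 at 4.01-fold in WT replicate 1 and 3.33- and 4.52-fold in KO. These peaks lay at different starts, from chr2:38339421 in WT and from 38351892 and 38350667 in KO, so the genotypes cannot be ordered.

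The cofactors and regulators of these families are given for comparison, without a test. Of 18 cofactors, H3K4me3 was called at 11 in WT and 12 in KO, and both acetylation marks at 10 and 11 of them, including the coactivators *Eya1* and *Eya3*, the LIM adaptor *Ldb1* and the corepressors *Tle1*, *Tle3* and *Tle4*. *Eya2*, *Eya4*, *Dach2*, *Ldb2* and *Lmo3* had no H3K4me3 in any library. Of 16 Polycomb genes, H3K4me3 was called at 15 in WT and 16 in KO, and both acetylation marks at 13 and 16. *Hox* genes of the 4 clusters, homeobox genes with a known role in *MLL-AF9* leukemia, had H3K4me3 at 9 of 39 in WT and 8 in KO, a share near that of the members, but both acetylation marks at 7 in either genotype. Myeloid transcription factors carried H3K4me3 at 12 and 13 of 14, and both acetylation marks at each of these.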

How the data were processed

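Peak lists of 16 ChIP libraries were used, and the 16 input libraries were not analysed here. Per the submitters' processing notes, the authors used BWA, MACS2 and the mm10 build, with versions not given in the sources used here. Each deposited list gives a fold enrichment (a ratio over background at the summit), the −log10 p-value and −log10 q-value, and a score derived from significance that was not used. The deposited lists extend beyond a q-value of 0.05. Fold enrichment and percentile were read within a list, from the strongest peak in a gene's windows.

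Windows were set on GENCODE M21 transcripts of chromosomes 1 to 19, X and Y, with positions counted from 1. The members, gene lists and named genes were chosen with earlier results of these data known. Values are given for the members with H3K4me3 in all 4 libraries, those called in 1 genotype, those without H3K9ac, those known from blood or vessels, and the widest peaks. Printed promoters took the extremes by mean percentile and the members of the next groups whose bases most H3K4me3 lists reach. Since members were chosen this way, differences between libraries are given without p-values. Some members are counted and not reported by name here. Sequences came from GRCm38, and upstream stretches touching an annotated exon were not printed.

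Python 3.11.15, numpy 2.4.6 and matplotlib 3.10.9 were used, and interval code was tested on simulated data against bedtools 2.31.1 (60 of 60 identical). Alternatives were stricter thresholds, equal list lengths, other windows, replicate rules and left-out replicates or genes.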

Additional observations from a re-analysis of the deposited data

Results flagged for a closer look

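The replicate 1 lists of H3K27ac and H3K4me1, which no call above uses, also held promoter peaks at members. For H3K27ac there were 2 in WT (*Dlx3* and *Sox6*) and 1 in KO (*Pax8*), and for H3K4me1 1 in WT and 3 in KO (*Pax6*, *Tbx19* and *Tbx22*). None of these peaks had a q-value of 0.05 or less. Other genes had such peaks in 12.7% and 0.467% for H3K27ac and in 1.85% and 3.29% for H3K4me1, in WT and KO.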

How the results depend on the processing

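With a q-value of 0.01 or less in every list, KO members with H3K4me3 numbered 12, with 1 carrying both acetylation marks, 1 H3K9ac only and 8 neither, while 1 WT member carried both and 4 members had H3K9ac in both WT replicates and neither KO replicate. With that limit on H3K4me3 alone, chosen after seeing the data, the KO counts were 12, 1 with both and 7 with neither. At a q-value of 0.05 the KO count with both was 1. With equal numbers of peaks, KO had 1 with both and 8 with neither. With the summit in the window, 1 WT member had both. With the window to 1 kb downstream, 11 WT members had H3K9ac only, 4 KO members had both and 4 had H3K9ac in WT alone. The outermost TSS left 1 KO member with H3K9ac only, and merged consensus regions gave 5 KO members with both. With a peak in either replicate, WT had 36 with H3K4me3, 18 with H3K9ac only and 14 with neither, KO had 4 with both and 10 with H3K9ac only, and 11 members had H3K9ac in WT alone and 3 in KO alone. H3K27ac replicate 1, or both replicates, gave 0 with both in WT and in KO and 4 with H3K9ac only in KO. Without members that share a window with another gene, 5 WT members had neither mark. The causes were not tested.

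Leaving out replicates gave, for WT, 19 to 36 members with H3K4me3, 7 to 17 with H3K9ac only and 9 to 15 with neither, for KO 4 to 6 with H3K9ac only, and 3 to 13 members with H3K9ac in WT alone and 0 to 3 in KO alone. WT replicate 2 decides the WT count, which is 36 without it. With the replicate block, the KO minus WT difference in members per library was -4.0 for H3K4me3 and -8.0 for H3K9ac, as without it. Replicate differences of WT and KO correlated over genes at -0.0798 for H3K4me3 and -0.000253 for H3K9ac, so no pairing by number was seen there. For H3K27ac and H3K4me1, replicate 1 held no member peak with a q-value of 0.05 or less in either genotype. Whether replicates of the same number share a batch was not tested. With both replicates kept, the KO minus WT differences in members per library kept their sign. Within replicate numbers the H3K4me3 difference changed sign, with -14 in replicate 1 and 6 in replicate 2. For H3K9ac these differences were -10 and -6. The order of the class counts was not kept. Members with neither mark were 15 in WT and 12 in KO without replicate 2, and members with both were 1 and 2 with the summit in the window and 4 and 5 with merged regions. The equal H3K4me3 counts became 19 and 25 without replicate 1 and 36 and 22 without replicate 2. The H3K9ac difference ranged from -10.5 to -6.5 and the H3K4me3 difference from -6.5 to -1.0. Members minus other genes ranged from -26.7 to -22.0 percentage points for H3K4me3 and from -37.2 to -35.5 for H3K9ac, the alternatives being chosen after seeing the data.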

Other observations

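Members without a promoter peak had a peak within 10000 bp of a TSS about as often as other genes without one, or more often, for H3K4me3. Of the 48, 65, 62 and 59 such members in WT replicates 1 and 2 and KO replicates 1 and 2, 13, 9, 10 and 11 had one, or 27.1%, 13.8%, 16.1% and 18.6%, against 13.5%, 10.9%, 12.5% and 12.1% of other genes. In the gene outside the window, 6, 5, 2 and 5 members had one. For H3K9ac in KO the counts were 10 of 72 and 9 of 75, or 13.9% and 12.0%, against 13.6% and 12.2%. For H3K4me1 replicate 2 they were 19 of 70 in WT and 17 of 54 in KO, or 27.1% and 31.5%, against 33.5% and 35.4%. These shares were not tested, and the comparison with other genes was chosen after seeing the data.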
